A study of Homo sapiens with 4 samples.

Results

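The ATF4 and amino acid response genes described here are 35 genes chosen by name, and each symbol was found in both deposited expression tables, among 18899 named genes in the WT table and 57169 in the shRNA table. They comprise 8 transcription factors, 6 stress effectors, 3 enzymes of serine synthesis, 4 of mitochondrial one-carbon metabolism, 4 enzymes of asparagine, cysteine and phosphoenolpyruvate metabolism, 7 amino acid transporters and 3 genes of tRNA charging and export. RNA was sequenced from U87, an established human glioblastoma cell line, in 4 libraries with 1 library per group. The WT table held unmodified (WT) cells in normoxia and WT cells in hypoxia, meaning an incubator at 1% O2. The shRNA table held shScr cells, which carry a scrambled hairpin, and shALKBH5 cells, which carry a hairpin against ALKBH5, an enzyme that removes N6-methyladenosine from RNA; both were kept in hypoxia, and no shRNA library in normoxia was analysed here. All cells grew in DMEM with fetal bovine serum, and the labels give neither a time in hypoxia nor a number of clones. The series' title names ALKBH5-dependent hypoxia-induced genes as the question. Since each group is 1 library, nothing here could be checked against replicates and p-values are not given; "higher" or "lower" describes these libraries only.

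ATF4 is the transcription factor at the end of the integrated stress response. Kinases that sense amino acid lack, unfolded protein, double-stranded RNA or haem lack phosphorylate the initiation factor eIF2, which slows protein synthesis in general while upstream reading frames in the ATF4 mRNA let more ATF4 protein be made. ATF4 pairs with C/EBP proteins at C/EBP-ATF response elements (CARE) and raises genes that import amino acids, make serine, glycine, asparagine and cysteine, and charge tRNAs. Because much of this control acts on translation, ATF4 mRNA is only an indirect readout of ATF4 protein, which was not measured here.

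CARE matches were sought near the start sites because ATF4 acts through them. Of the 35 members, 29 had a RefSeq promoter window (GRCh38.p14, 250 bases before to 50 after the start). The letters TGATGNAAN, read on both strands, were found in 11 of those 29 members (37.9%) and in 1215 of the 27305 genes in the table (4.45%). Counted by window, so that alternative starts weigh separately, 13 of 52 member windows (25%) and 1268 of 35116 windows (3.61%) held a match. The stretches below, each 29 bases long and 5′ to 3′ on the gene's strand, show 7 of these matches in capitals with 10 bases on either side; ASNS, CHAC1, ATF3, AARS and SLC1A5 are genes whose levels are described below, CEBPG is the matched gene among those higher with shALKBH5, and MTHFD1L holds the full form.
ASNS, chr7:97872458-97872486, minus strand: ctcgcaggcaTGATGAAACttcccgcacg
CHAC1, chr15:40953251-40953279, plus strand: ctcccctgccGTTGCATCActcctgccag
ATF3, chr1:212565206-212565234, plus strand: aaggtcaggaTGATGGAAGgctgtcatat
AARS, chr16:70289676-70289704, minus strand: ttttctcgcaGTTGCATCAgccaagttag
CEBPG, chr19:33374061-33374089, plus strand: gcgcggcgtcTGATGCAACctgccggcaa
SLC1A5, chr19:46784893-46784921, minus strand: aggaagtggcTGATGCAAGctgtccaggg
MTHFD1L, chr6:150866347-150866375, plus strand: ccgccggctcTGATGCAATcgcgccgggc
The match read as TGATG in ASNS, ATF3, CEBPG, SLC1A5 and MTHFD1L, and in CHAC1 and AARS it lay on the opposite strand, so that it ends in CATCA. The stricter form TGATGCAAT, which is contained in the CARE letters, occurred in 1 of 29 members, MTHFD1L, and in 0.293% of genes. The members with a match were ASNS, CHAC1, ATF3, AARS, CEBPG, SLC1A5, MTHFD1L, JDP2, SLC1A4, SLC7A1 and SLC3A2. The hypoxia-inducible factor core was searched as ACGTG on both strands, and other forms of that core were not searched. ACGTG was in 7 of 29 members (24.1%), close to the 24.9% of all genes. A match is a run of letters and not evidence of binding. The members were chosen by name as ATF4 and amino acid response genes, so their higher CARE share is a description and no test of ATF4 control.

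**Figure D1:**
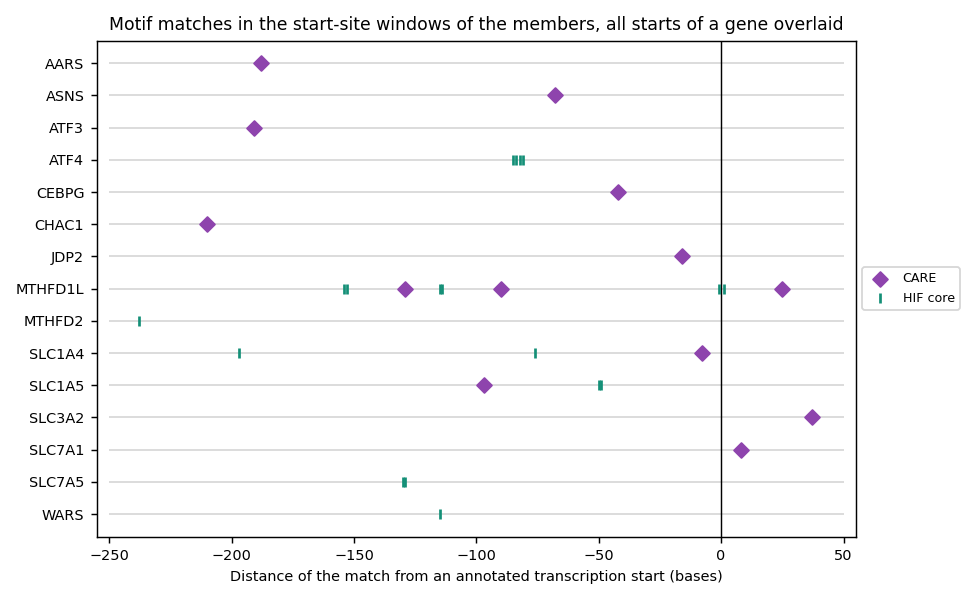
Position of CARE (diamonds) and hypoxia-inducible factor core ACGTG (ticks) matches in the members that hold either, with the horizontal axis in bases from an annotated RefSeq start and negative values before it. The first base of the CARE match lies 210 bases before the start in CHAC1 and 68 before it in ASNS; SLC7A1 and SLC3A2 have theirs after the start, and the 3 diamonds of MTHFD1L are 1 site seen from 3 starts.

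Of the 5 members at least 2-fold higher with shALKBH5, 4 had a window, and CEBPG was the 1 with a CARE match. The 250 bases before the start of the other members with a window, SESN2, MTHFD2 and GDF15, are given in lower case throughout because they held no CARE match in either orientation. MTHFD2 held 1 match to ACGTG, on the opposite strand, and other forms of the hypoxia-inducible factor core were not searched.
SESN2, chr1:28259268-28259517, plus strand: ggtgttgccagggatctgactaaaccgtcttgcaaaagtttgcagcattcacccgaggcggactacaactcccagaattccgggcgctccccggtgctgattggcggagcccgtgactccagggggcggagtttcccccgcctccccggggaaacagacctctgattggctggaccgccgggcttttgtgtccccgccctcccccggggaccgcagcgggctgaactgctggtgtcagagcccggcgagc
MTHFD2, chr2:74198365-74198614, plus strand: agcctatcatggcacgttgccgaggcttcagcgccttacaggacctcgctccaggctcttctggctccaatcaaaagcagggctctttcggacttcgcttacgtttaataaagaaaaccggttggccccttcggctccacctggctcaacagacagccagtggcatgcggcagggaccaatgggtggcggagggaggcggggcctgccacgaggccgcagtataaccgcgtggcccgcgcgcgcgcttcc
GDF15, chr19:18385908-18386157, plus strand: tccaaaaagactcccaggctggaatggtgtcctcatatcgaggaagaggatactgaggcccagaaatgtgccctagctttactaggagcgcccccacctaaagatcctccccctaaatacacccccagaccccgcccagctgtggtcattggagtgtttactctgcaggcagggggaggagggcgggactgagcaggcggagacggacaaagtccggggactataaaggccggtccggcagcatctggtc
No match says only that these letters are absent from this window; elements farther away or inside the gene were not searched.

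The cells, the targeted gene and the depth were checked on the same tables. The mesenchymal markers VIM and CD44 were abundant in every library (552 FPKM or more and 67.2 FPKM or more), EGFR and TNC were detected in all 4, NES lay between 2.93 and 12.4 FPKM, and the neural markers GFAP, OLIG2, SOX2 and S100B lay between 0 and 1.35 FPKM, so the astrocytic markers that could define the labelled tumour type were near 0. Of the markers of other cell types, PTPRC, VWF and EPCAM stayed at or below 0.28 FPKM, KRT8 at or below 1.69 FPKM and PECAM1 between 0.69 and 2.5 FPKM (at least 2-fold higher in WT hypoxia), while CD68 read 289.8 and 254.5 FPKM in the WT table and 0.154 and 0 FPKM in the shRNA table. ALKBH5 read 186 FPKM with shScr and 113 FPKM with shALKBH5, a log2 change of -0.71, short of 2-fold. Scaling to total reads or TPM shifts every log2 ratio of the shRNA table up by about 0.18 or 0.26 before the 1 is added, which makes this drop smaller. The hypoxia marker CA9, a carbonic anhydrase, was at 1.27 FPKM in WT normoxia and at 321.7 FPKM in hypoxia. Reads recovered from the shRNA table totalled 17859370 for shScr and 16780154 for shALKBH5; the depth of the WT table is unknown. FPKM are reads scaled to gene length and to a divisor for each library, and each change below is the difference of log2(FPKM + 1) between the 2 libraries of a table. In bulk RNA, fewer cells of a type and less RNA per cell cannot be told apart.

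The members were expressed above the typical gene in all 4 libraries. On the FPKM scale, their median level was 21.5 in normoxic and 46.7 in hypoxic WT cells, and 19.6 in shScr and 28.6 in shALKBH5 cells, beside 12.3, 9.23, 5.85 and 5.71 for all genes with a mean of at least 1 FPKM in their table. All 35 passed that filter in both tables. EIF4EBP1, an inhibitor of cap-dependent translation, was the highest member in the 3 hypoxic libraries, at 469.7 FPKM in WT cells, 491 FPKM with shScr and 403 FPKM with shALKBH5. The highest in WT normoxia was the glutamine transporter SLC1A5, at 177 FPKM. The lowest were CBS, the first enzyme of transsulfuration, at 0.33 FPKM in normoxic WT cells and 0.688 FPKM in shALKBH5 cells, and SLC7A11, the cystine importer, at 2.16 FPKM in hypoxic WT cells and 1.49 FPKM in shScr cells.

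**Figure D2:**
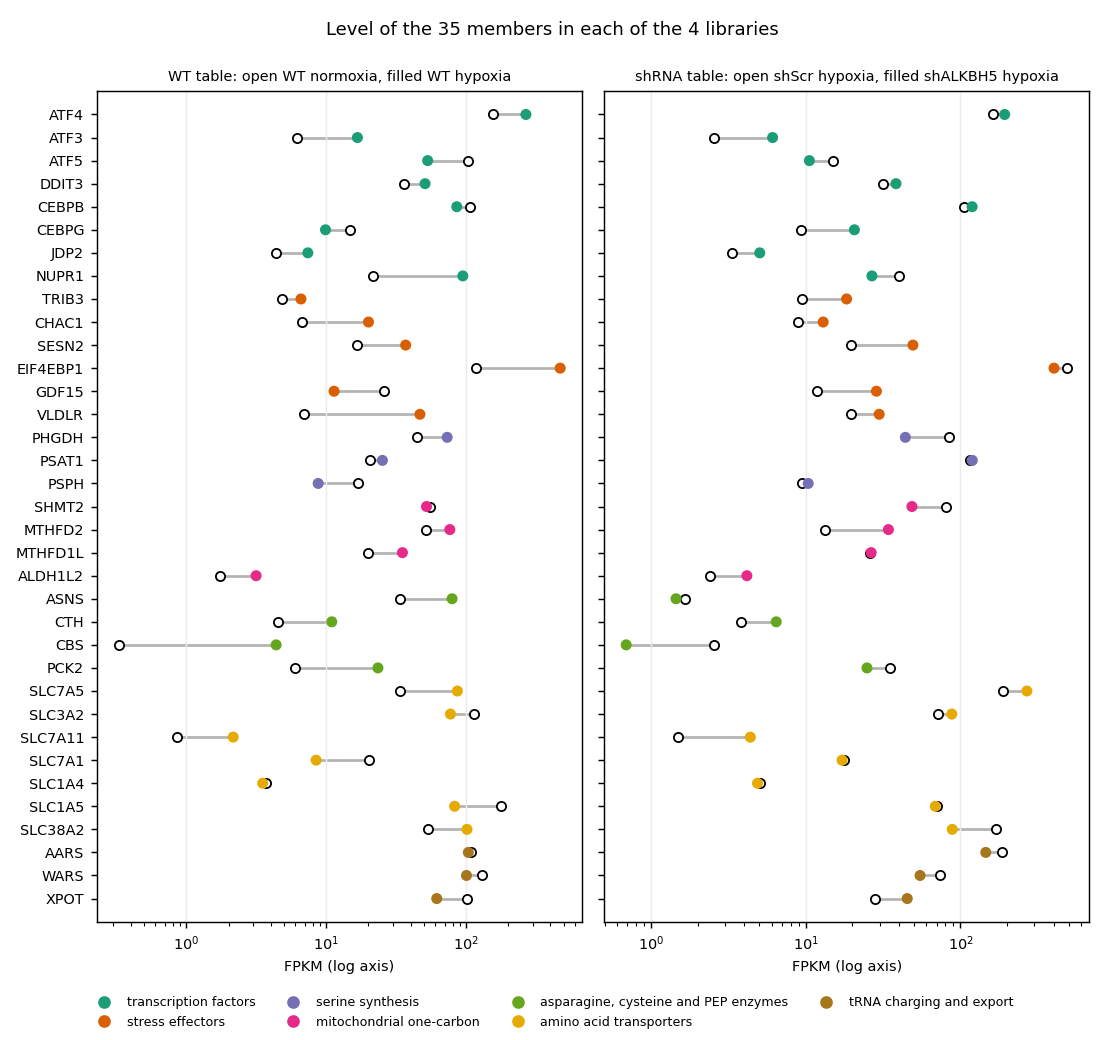
Level of each of the 35 members (rows, grouped by role) in the 4 libraries on a logarithmic FPKM axis; open symbols are the control and filled symbols the other library of each table, with no error bars because each group is 1 library. The members span from under 1 FPKM (CBS in WT normoxia and with shALKBH5) to 403 FPKM or more (EIF4EBP1 in hypoxia).

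In hypoxia, 11 of the 35 members were at least 2-fold higher in WT cells, 3 were at least 2-fold lower and 21 were neither. The share of all 11050 filtered genes that were 2-fold or more higher was 7.41%, and 14.7% were 2-fold or more lower. The members' median log2 change was 0.59, beside -0.35 for all genes; 26 members lay above that median gene. The higher members were stress effectors, enzymes of asparagine, cysteine and phosphoenolpyruvate metabolism, a pair of transcription factors and 1 transporter, and the lower ones were GDF15 and a pair of transporters. Centred on the median gene, 16 members were at least 2-fold higher and 0 were 2-fold lower, beside 11.9% and 5.73% of all genes: ATF4, MTHFD1L, PHGDH, SLC38A2 and SLC7A11 crossed the threshold upward and the 3 lower calls ended.

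Among the transcription factors, ATF4 mRNA stood in WT cells at 154 FPKM before and 267 FPKM under hypoxia, a difference of 0.79 on the log2 scale and so under 2-fold. ATF3, a stress-induced repressor and activator, read 6.15 and 16.7 FPKM (1.31). NUPR1, a small stress-induced chromatin-associated factor, read 21.5 and 94.6 FPKM. ATF3 and NUPR1 were the 2 factors at least 2-fold higher. DDIT3, which encodes the pro-apoptotic factor CHOP, read 36.2 and 50.8 FPKM (0.48), and JDP2, an AP-1 family repressor, read 4.4 and 7.38 FPKM (0.63). ATF5, a relative of ATF4 also controlled by upstream reading frames, lay the other way, at 103 FPKM in normoxia and 53.05 FPKM in hypoxia (-0.94; -1.05 after rescaling to TPM, past 2-fold). The ATF4 partners CEBPB (106.6 and 85.6 FPKM, -0.31) and CEBPG (14.7 and 9.87 FPKM, -0.53) were lower in hypoxia by less than 2-fold, and CEBPB lay at 0.04 once centred.

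The stress effectors had a median log2 change of 1.28 in hypoxia: 4 of 6 passed 2-fold upward and 1 downward. VLDLR, a lipoprotein receptor, read 6.95 FPKM in normoxia and 46.7 FPKM in hypoxia, a log2(FPKM + 1) change of 2.58, the largest of the 35. Its plain FPKM ratio of 6.72 was below the 13.3 of CBS, a gene at 0.33 FPKM in normoxia. EIF4EBP1 read 117 and 469.7 FPKM (1.996). CHAC1, which degrades glutathione, read 6.71 and 20.03 FPKM (1.45), and SESN2, a leucine sensor that restrains mTORC1, read 16.5 and 36.9 FPKM (1.11). TRIB3, a pseudokinase that feeds back on ATF4, read 4.85 and 6.59 FPKM (0.38). GDF15, a secreted stress cytokine, was lower, at 25.8 FPKM in normoxia and 11.4 FPKM in hypoxia (-1.11; -0.76 once centred).

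All 4 enzymes of asparagine, cysteine and phosphoenolpyruvate metabolism were at least 2-fold higher in WT hypoxia, with a median log2 change of 1.51. CBS was listed at 0.33 FPKM in normoxia and 4.38 FPKM in hypoxia (2.02), so it passed the filter through the hypoxic library alone. PCK2, the mitochondrial phosphoenolpyruvate carboxykinase, read 5.96 and 23.4 FPKM (1.81). ASNS, asparagine synthetase and a classical ATF4 target, read 33.9 and 79.3 FPKM (1.20), and CTH, which makes cysteine from cystathionine, read 4.52 and 10.9 FPKM (1.11). CBS has the near-identical copy CBSL, so reads could be shared between them and its values are uncertain.

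No gene of serine synthesis or of the mitochondrial one-carbon group reached 2-fold in hypoxia. PHGDH, the first enzyme of serine synthesis, read 44.4 and 73.1 FPKM (0.71), PSAT1, the second, 20.4 and 25.2 FPKM (0.29), and PSPH, the last, 16.95 and 8.75 FPKM (-0.88), so the 3 steps of 1 pathway lay in different directions. In the mitochondrial branch, MTHFD1L (19.99 and 35.02 FPKM, 0.78), ALDH1L2 (1.75 and 3.15 FPKM, 0.59) and MTHFD2 (51.9 and 76.4 FPKM, 0.55), which interconvert folate units, were higher by less than 2-fold. SHMT2, which passes the serine carbon to folate, read 55.25 and 52.1 FPKM (-0.08; 0.27 once centred).

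The transporters were split in hypoxia. SLC7A5, the light chain of the LAT1 leucine exchanger, read 33.7 FPKM in normoxia and 86.5 FPKM in hypoxia (1.33), while its heavy chain SLC3A2 read 114 and 77.2 FPKM (-0.55). The FPKM of SLC7A5 over that of SLC3A2 thus went from 0.297 to 1.12 in WT cells, and stood at 2.66 and 3.06 with shScr and shALKBH5; this ratio and those below were chosen after their values were seen. SLC7A1, the cationic amino acid transporter, read 20.05 and 8.46 FPKM (-1.15), and SLC1A5 read 177 and 82.7 FPKM (-1.09); both were at least 2-fold lower, and both calls ended when centred. SLC38A2, a neutral amino acid transporter, read 53.8 and 101 FPKM (0.90), SLC7A11 read 0.86 and 2.16 FPKM (0.76, with a plain FPKM ratio of 2.51, since the added 1 lowers the change of low genes), and SLC1A4, which carries serine and alanine, read 3.72 and 3.51 FPKM (-0.07; 0.29 once centred).

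The genes of tRNA charging and export had a median change of -0.37 in hypoxia, the only member group below the median gene of -0.35. AARS, alanyl-tRNA synthetase, read 108 and 104 FPKM (-0.06; 0.29 once centred), WARS, tryptophanyl-tRNA synthetase, 130 and 100 FPKM (-0.37), and XPOT, which exports tRNAs from the nucleus, 101 and 61.6 FPKM (-0.70).

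**Figure D3:**
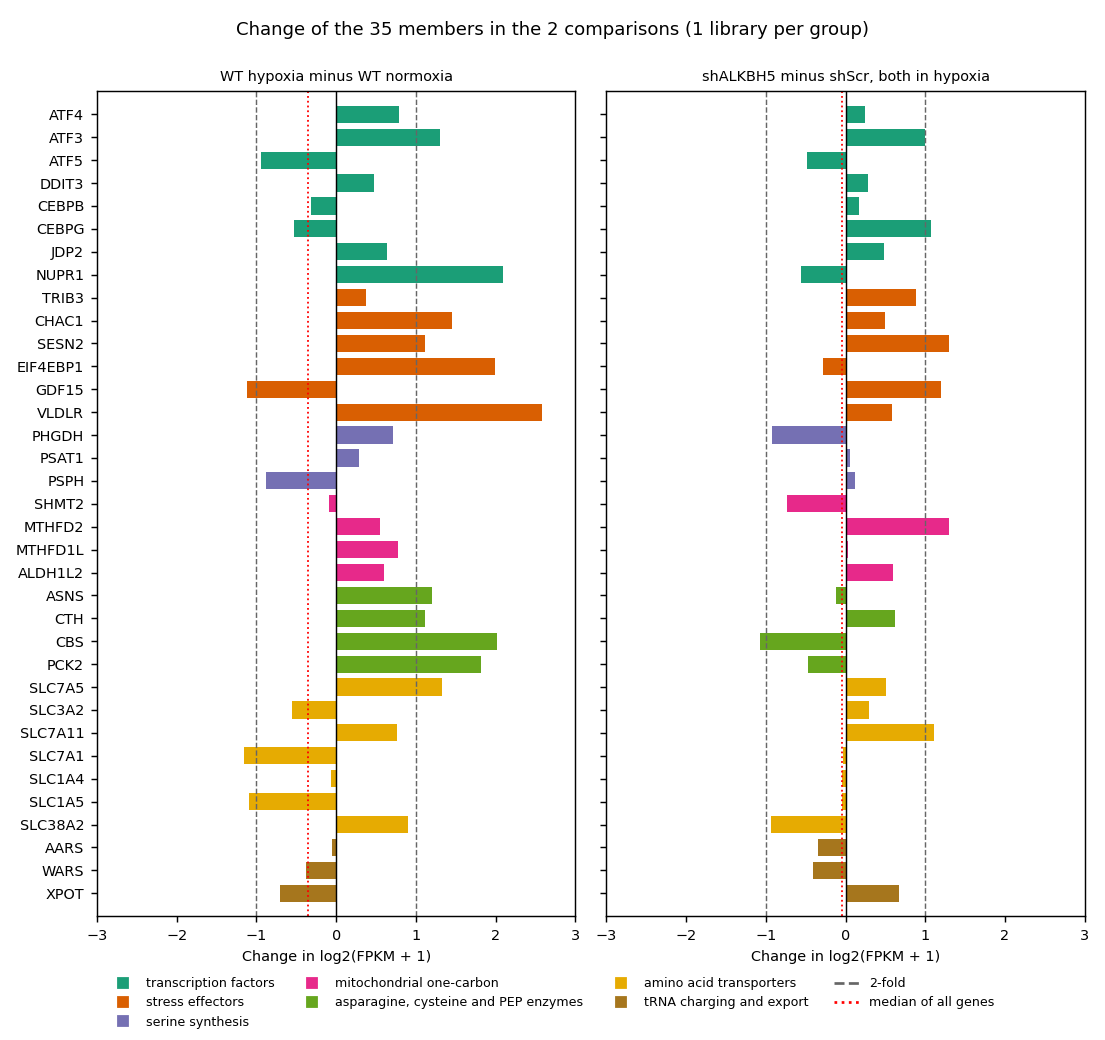
Change in log2(FPKM + 1) of each member (bars, coloured by role) in WT hypoxia against WT normoxia on the left and in shALKBH5 against shScr, both in hypoxia, on the right; dashed lines mark 2-fold, dotted lines the median of all genes, and there are no error bars because each group is 1 library. On this scale VLDLR is highest in hypoxia at 2.58, and MTHFD2 and SESN2 are highest with shALKBH5 at 1.30 and 1.29. By plain FPKM ratio, CBS (13.3) is highest in hypoxia and SLC7A11 (2.93) with shALKBH5, both genes of low level.

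With shALKBH5, 5 of the 35 members were at least 2-fold higher than with shScr, 1 was at least 2-fold lower and 29 were neither. Over all 10925 filtered genes, 1.76% were 2-fold or more higher and 3% were 2-fold or more lower. The members' median log2 change was 0.17, beside -0.04 for all genes, and 22 of 35 lay above the median gene. The higher members were SESN2, GDF15, CEBPG, MTHFD2 and SLC7A11, which belong to 4 different role groups, and the lower one was CBS. Intervals below are exact 95% Clopper-Pearson intervals for the log2 ratio of recovered reads, and they cover counting error in these libraries only. Of the 35, 28 excluded 0 on the deposited scale. On total reads, which moves every interval up by 0.18, 33 did, and those of ASNS and SLC1A4 alone included it. Intervals were not computed for all genes, so these counts have no background share and do not set the members apart. Genes with many reads have narrow intervals.

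SESN2 read 19.5 FPKM with shScr (1000 reads) and 49.3 FPKM with shALKBH5 (2696 reads), a log2 change of 1.29 with an interval of the read ratio from 1.23 to 1.44. GDF15 read 11.9 FPKM (368 reads) and 28.6 FPKM (946 reads), with an interval from 1.09 to 1.45. These were the stress effectors past 2-fold. TRIB3 read 9.48 and 18.3 FPKM, a log2 change of 0.88 that became 1.04 on total reads and 1.18 on TPM. CHAC1 (8.93 and 12.9 FPKM, 0.49) and VLDLR (19.6 and 29.8 FPKM, 0.58) were higher by less than 2-fold, and EIF4EBP1 was lower (491 and 403 FPKM, -0.29; -0.03 on TPM).

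CEBPG read 9.24 FPKM with shScr (606 reads) and 20.6 FPKM with shALKBH5 (1440 reads), a log2 change of 1.08, the 1 transcription factor past 2-fold. ATF3, at 2.55 and 6.09 FPKM (153 and 390 reads), had a log2 change just under the threshold, and it passed with a pseudocount of 0.1 FPKM, when centred (1.04), on TPM (1.40) and on total reads (1.11). ATF4 itself read 163 and 193 FPKM (0.24, interval 0.19 to 0.29). Its relatives and partners lay on both sides of 0: DDIT3 (31.4 and 38.3 FPKM, 0.28), JDP2 (3.30 and 5.03 FPKM, 0.49) and CEBPB (106 and 119 FPKM, 0.17) above, ATF5 (15.1 and 10.5 FPKM, -0.48) and NUPR1 (39.9 and 26.7 FPKM, -0.56) below. DDIT3 shares 355 of 1307 exon bases with MARS on the opposite strand, and the sources used here do not say whether counting used strand. In all, 13 of the 35 members share exon bases with another gene, among them MTHFD2 (1324 of 4870, with SLC4A5, which had 0 and 3 reads) and SLC7A11 (865 of 9645, with SLC7A11-AS1).

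Enzymes of one-carbon and serine metabolism differed in direction with shALKBH5. MTHFD2, the mitochondrial enzyme that oxidises methylene-folate, read 13.3 FPKM (961 reads) with shScr and 34.2 FPKM (2640 reads) with shALKBH5, with an interval from 1.26 to 1.47. SHMT2, the step before it, read 81.0 and 48.5 FPKM (-0.73, interval -0.80 to -0.68), so that MTHFD2 over SHMT2 went from 0.164 to 0.705. PHGDH read 84.2 and 44.0 FPKM (-0.92, interval -0.98 to -0.89), just short of 2-fold lower. PSAT1 (115 and 119 FPKM, 0.06), PSPH (9.45 and 10.3 FPKM, 0.12) and MTHFD1L (25.9 and 26.5 FPKM, 0.03) had intervals that included 0 on the deposited scale and lay above it on total reads, and ALDH1L2 read 2.41 and 4.15 FPKM.

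CBS was the 1 member at least 2-fold lower with shALKBH5, at 2.55 FPKM (257 reads) with shScr and 0.688 FPKM (74 reads), a log2(FPKM + 1) change of -1.07. In this comparison CBS passed the filter through the shScr library alone. Its plain FPKM was 3.70-fold lower and its interval of the read ratio ran from -2.28 to -1.51; scaling to total reads gave -0.92 on the log2 scale with the added 1, which ends the call at this low level. Summed with its copy CBSL, it had 454 and 162 reads, a log2 read ratio of -1.58 (interval -1.85 to -1.32). PCK2 read 34.8 and 24.9 FPKM (-0.47) and CTH 3.82 and 6.43 FPKM (0.62). ASNS read 1.66 FPKM (110 reads) and 1.44 FPKM (102 reads), with a log2 change of -0.12 (0.05 on TPM) and an interval from -0.61 to 0.20, far under its level in the WT table. Of its 1752 coding bases, 1683 are shared with AC079781.5, a gene on the same strand with 4 and 2 reads, so ASNS is uncertain in the shRNA table, and whether the overlap accounts for the low level was not tested.

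SLC7A11 was the 1 transporter past 2-fold with shALKBH5, at 1.49 FPKM (214 reads) with shScr and 4.37 FPKM (668 reads). Its log2 change was 1.11, and its interval of the read ratio, which has no added 1, ran from 1.33 to 1.78. Its plain FPKM ratio of 2.93 was the largest of the members. SLC38A2 lay at the other end, at 170.3 and 88.5 FPKM (16711 and 9260 reads), a log2 change of -0.94, just short of 2-fold lower. SLC7A5 (189.6 and 269 FPKM, 0.50) and SLC3A2 (71.3 and 87.9 FPKM, 0.30) were both higher by less than 2-fold. SLC7A1 (17.5 and 17.1 FPKM), SLC1A4 (5.06 and 4.86 FPKM) and SLC1A5 (71.0 and 68.8 FPKM) had intervals that included 0 on the deposited scale; on total reads those of SLC7A1 and SLC1A5 lay above it. Of the tRNA genes, AARS (184.8 and 145.8 FPKM, -0.34) and WARS (73.3 and 54.8 FPKM, -0.41) were lower and XPOT (28.03 and 45.2 FPKM, 0.67) higher, all under 2-fold.

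The hypoxia and shALKBH5 comparisons share no library. SESN2 was at least 2-fold higher in both. CBS was higher in WT hypoxia and lower with shALKBH5, and GDF15 was lower in WT hypoxia and higher with shALKBH5. Of the other members higher in hypoxia, 9 (ATF3, NUPR1, CHAC1, EIF4EBP1, VLDLR, ASNS, CTH, PCK2 and SLC7A5) did not pass the 2-fold rule with shALKBH5, though ATF3 had a plain FPKM ratio of 2.39. Over all filtered genes, 1.76% were called higher and 3% lower with shALKBH5. Most genes thus fail that rule, and failing it does not set these members apart. Shares of all genes with each pair of calls were not computed. CEBPG, MTHFD2 and SLC7A11 were called higher with shALKBH5 and not in hypoxia, though SLC7A11 passed 2-fold there with a pseudocount of 0.1 FPKM or when centred. GDF15 over NUPR1 went from 1.20 to 0.120 in WT hypoxia and from 0.298 to 1.07 with shALKBH5. Across the 35 members the Spearman correlation of both changes was -0.08, beside -0.07 over 9262 genes; genes are not independent replicates and this is a description. In sign, 15 members were above 0 in both, 7 above in hypoxia alone, 6 above with shALKBH5 alone and 7 below in both; the shares were 42.9%, 20%, 17.1% and 20%, beside 13.7%, 19.3%, 33.2% and 33.7% of the 9262 genes. Centred on the median gene of each comparison, the members' counts were 16, 10, 6 and 3. Centred shares of the 9262 genes were not computed, and the shares above are not centred, so these counts have no background beside them.

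**Figure D4:**
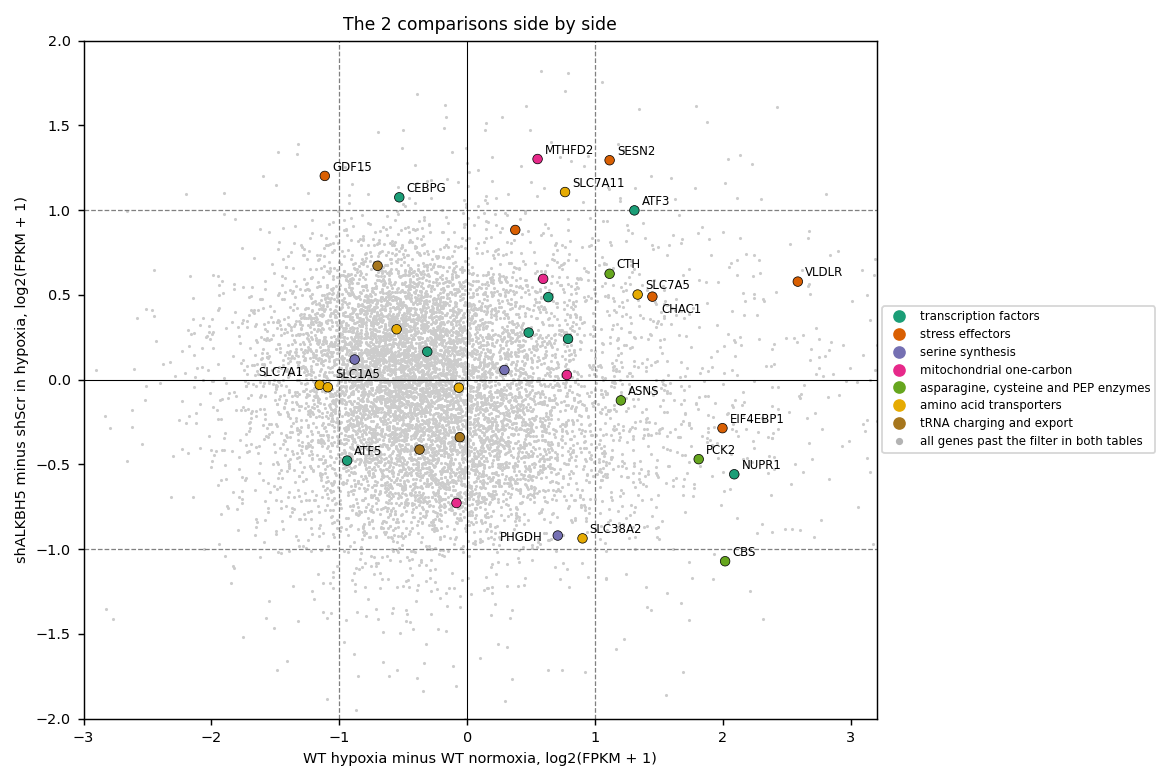
Log2 change in WT hypoxia (horizontal) against log2 change with shALKBH5 (vertical) for the 35 members over all genes past the filter in both tables (grey); the axes are cut, so some grey genes lie outside. SESN2 is the 1 member past 2-fold upward on both axes, and CBS and GDF15 sit in opposite corners.

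Neighbouring pathways were compared with the members by the same rule. Regulators of the eIF2 step (kinases, eIF2, eIF2B and phosphatase subunits) had 0 of 16 genes higher and 6 lower in hypoxia, with a median of -0.73 (EIF2B3 -1.81, EIF2S3 -1.22, EIF2S1 -1.21 and EIF2AK2 -1.17), and 0 of 16 past 2-fold with shALKBH5. The other cytosolic tRNA synthetases had 0 of 18 higher and 6 lower in hypoxia, median -0.87 (FARSB -2.58, VARS -1.76, IARS -1.56 and LARS -1.49), and 0 of 18 past 2-fold with shALKBH5. Other ATF4 and CHOP targets had 4 of 12 higher and 0 lower in hypoxia, median 0.79 (DDIT4 5.48, STC2 2.68, ERO1A 2.14 and HERPUD1 1.06), and 1 of 13 higher with shALKBH5 (GADD45A, a DNA damage and stress gene, 10.8 and 26.8 FPKM). DDIT4, an mTORC1 inhibitor that hypoxia-inducible factor also drives, read 11.6 and 560.1 FPKM in WT cells.

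Genes of proline, glutamine, aspartate and arginine synthesis had 3 of 12 higher and 1 lower in hypoxia (GPT2 1.88, ASS1 1.48, ALDH18A1 1.09 and GOT2 -1.33). With shALKBH5, 3 of these genes were lower and 0 higher; among them GLUL, which makes glutamine, read 15.1 and 2.43 FPKM (-2.23), and ALDH18A1, which makes proline precursors, 27.7 and 11.7 FPKM (-1.18). Other folate and methyl-cycle genes had 5 of 15 lower in hypoxia (GART -2.03, ATIC -2.02, MTHFD1 -1.88 and MAT2A -1.33) and 1 of 13 higher with shALKBH5 (MAT2A, which makes S-adenosylmethionine, 4.23 and 12.7 FPKM, 1.39). MAT2A shares 558 of 4487 exon bases with GGCX on the opposite strand. GGCX had 533 and 542 reads, beside 282 and 902 for MAT2A, and whether counting used strand is unknown. Glutathione and cysteine genes had 4 of 9 lower in hypoxia (GGCT -2.66, CHAC2 -2.17, GSR -1.56 and MAT2B -1.12) and 0 of 8 past 2-fold with shALKBH5.

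Among other amino acid transporters, 4 of 12 passed 2-fold upward in hypoxia (SLC6A6 2.38, SLC38A5 1.71, SLC1A1 1.42 and SLC6A9 1.01) and 1 was lower (SLC7A6 -1.55). SLC38A5, at 0 FPKM in normoxia and 2.27 FPKM in hypoxia, and SLC1A1, at 0.91 and 4.1 FPKM, passed the filter through the hypoxic library alone. With shALKBH5, SLC6A9, a glycine transporter, was the 1 of 11 past 2-fold, at 23.7 FPKM (1818 reads) with shScr and 2.96 FPKM (242 reads) with shALKBH5, a log2 change of -2.64. It shares 404 of 5159 exon bases with CCDC24 on the opposite strand, which had 245 and 212 reads. SLC6A9, ALDH18A1 and CBS were each called higher in WT hypoxia and lower with shALKBH5. Genes outside these lists also had both calls, such as ALDOC (4.52 in hypoxia and -1.03 with shALKBH5) and B3GALT4 (1.43 and -1.36). Both calls are thus not a trait of SLC6A9, ALDH18A1 and CBS alone, and the share of all genes with both was not computed. SLC6A9 was low in WT cells, at 1.14 FPKM in normoxia and 3.31 FPKM in hypoxia, just past 2-fold. The lower call of CBS ended on total reads. Sestrin and mTORC1 genes had RRAGA (2.84) higher and MTOR (-1.24) lower in hypoxia, and EIF4EBP2 (1.02) higher with SESN3 (-1.43) and CASTOR2 (-1.19) lower with shALKBH5. Endoplasmic reticulum stress genes of the XBP1 and ATF6 branches had 0 of 10 higher and 1 lower in hypoxia (SDF2L1 -1.10), and with shALKBH5 1 of 9 was higher (DNAJB9, 8.47 and 22.5 FPKM, 1.31) and 8 of 9 were above 0, with a median of 0.55. DNAJB9 shares 183 of 2837 exon bases with THAP5 and 99 with PNPLA8, both on the opposite strand.

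**Figure D5:**
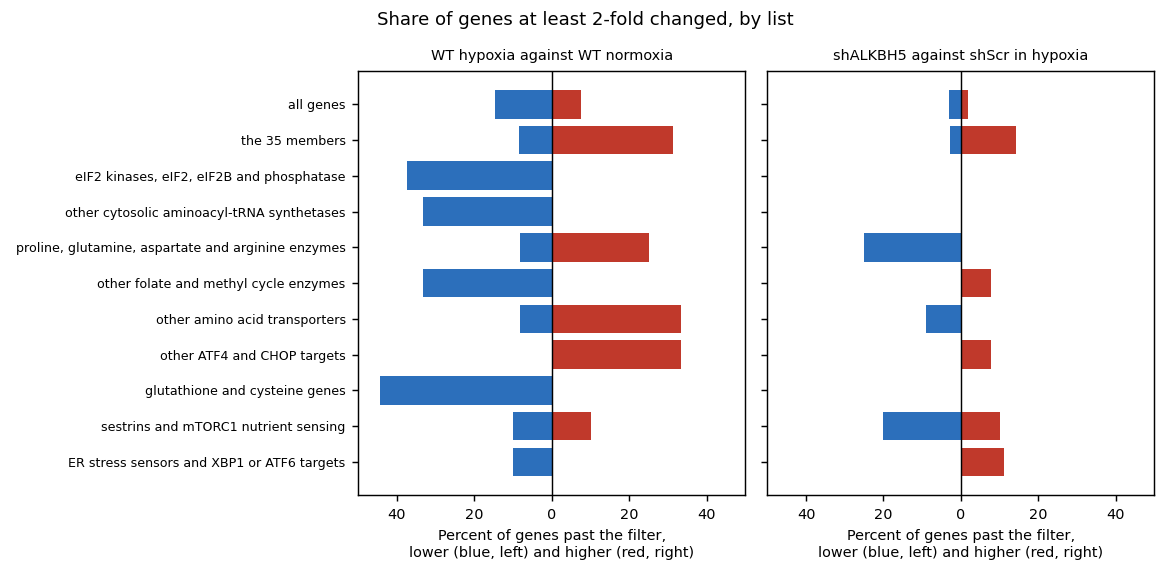
Percent of the genes past the filter that were at least 2-fold lower (bars to the left) or higher (bars to the right), for all genes, the 35 members and the neighbouring lists, in WT hypoxia on the left and with shALKBH5 on the right. In hypoxia the members have 11 higher and 3 lower. The eIF2 regulators, other tRNA synthetases, folate and methyl-cycle, glutathione and cysteine, and endoplasmic reticulum stress lists have bars to the left alone. Lists hold 8 to 18 genes, so 1 gene is a wide step.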

How the data were processed

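The authors deposited FPKM (fragments scaled to gene length and a divisor for each library) in 2 tables, one for the WT libraries and one for the shRNA libraries, normalised separately, so folds were taken only within a table. Aligner, counter and strand setting were all not given in the sources used here. Build hg19 is named in the submitters' processing notes, whereas gene lengths, starts and ends in the shRNA table equal those of GENCODE 29 (GRCh38) for 35 of 35 members; the WT table gives no lengths, and its depth is unknown. Libraries were made with the NEBNext Ultra kit from Trizol RNA, per the labels' protocols.

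Changes are differences of log2(FPKM + 1), computed from the deposited FPKM, for genes with a mean of at least 1 FPKM over the libraries compared. A call is at least 2-fold. Because the filter uses the mean, a gene below 1 FPKM in either library can pass through the other library alone. Left out were 65 of 18964 rows of the WT table, whose symbols were dates or bare numbers. Where rows of the shRNA table shared a symbol, the one with the highest mean was kept, which dropped 1566 of 58735 rows. FPKM times gene length gave whole reads (tolerance 0.01 read) for 100% of the values of the shRNA table, and the exact 95% Clopper-Pearson interval of the ratio of reads, divided by the deposited scale, was computed from them. The deposited FPKM divisor was 83.2% (shScr) and 94.5% (shALKBH5) of all recovered reads. No test across samples is possible with 1 library per group. The members and the neighbouring lists were chosen with earlier results of these data known. All 35 members are named; of each neighbouring list, the genes past 2-fold, up to 4 per comparison with the largest change, except 1 that is not reported here. Alternatives were a pseudocount of 0.1, no filter, a mean of at least 5 FPKM, centring on the median gene, TPM, total recovered reads, 1.5-fold and 3-fold thresholds, and summing rows that share a symbol. Scripts were tested on simulated data and ran in Python 3.11.15 with scipy 1.17.1 for intervals, pandas 2.3.3 and numpy 2.4.6 for tables, and matplotlib 3.10.9 for plots.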

Additional observations from a re-analysis of the deposited data

How the results depend on the processing

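In hypoxia, members at least 2-fold higher numbered 11 on the deposited scale, 12 with a pseudocount of 0.1, 10 of 31 at a mean of at least 5 FPKM, 16 when centred on the median gene, 11 on TPM, 18 at 1.5-fold and 5 at 3-fold; the shares of all genes were 7.41%, 8.74%, 7.59%, 11.9%, 7.23%, 13.2% and 3.35%. Members at least 2-fold lower numbered 3, against 0 when centred, 5 on TPM (ATF5 and PSPH were added), 6 at 1.5-fold and 0 at 3-fold, beside 14.7%, 5.73%, 20.3%, 35.3% and 3.08% of all genes. The members' median change of 0.59 became 0.72 with a pseudocount of 0.1, 0.55 at a mean of at least 5 FPKM and 0.95 when centred. With shALKBH5, higher members numbered 5, against 6 with a pseudocount of 0.1, 4 of 28 at a mean of at least 5 FPKM, 6 when centred, 7 on TPM, 7 on total reads, 10 at 1.5-fold and 0 at 3-fold, beside 1.76%, 4.03%, 1.39%, 1.99%, 8.39%, 2.71%, 8.49% and 0.458% of all genes. Lower members numbered 1, against 0 at a mean of at least 5 FPKM, 0 on total reads, 4 at 1.5-fold and 0 at 3-fold, beside 3%, 3.69%, 1.71%, 13.6% and 0.604%. The median change of 0.17 became 0.14 at a mean of at least 5 FPKM and 0.20 when centred. On TPM and total reads it was 0.42 and 0.35, beside all-gene medians of 0.23 and 0.10. Before the 1 is added, these 2 scales shift every log2 ratio by about 0.26 and 0.18. The added 1 and the filter of 1 were applied on the new scale, so changes of low genes moved by other amounts. On TPM, CBS went from -1.07 to -1.30 and SLC7A11 from 1.11 to 1.60. Summing rows that share a symbol, or no filter, left these counts and medians as they were. The sign held under the scale, pseudocount and filter alternatives in 31 of 35 members in each comparison; it turned for AARS, CEBPB, SHMT2 and SLC1A4 in hypoxia when centred, and with shALKBH5 for ASNS on TPM, for SLC1A4 and SLC1A5 on TPM and total reads, and for SLC7A1 on both and when centred. None of these was past 2-fold in the comparison where its sign turned. No paired analysis was possible because each group has 1 library. The depth of the WT table is unknown, so its low values carry no counting interval.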

Other observations

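Some members stood at very different levels in WT hypoxia and shScr hypoxia, which share the line and the labelled oxygen but come from separately normalised tables, so the levels are only set side by side. PSAT1 was listed at 25.2 FPKM in WT hypoxia and 115 FPKM with shScr, MTHFD2 at 76.4 and 13.3 FPKM, and ATF5 at 53.05 and 15.1 FPKM. ASNS was listed at 79.3 and 1.66 FPKM. CD68, a macrophage marker, was listed at 254.5 FPKM in WT hypoxia and 0.154 FPKM with shScr. Its exons share 1789 of 2189 bases with the same-strand gene AC016876.2, and whether this overlap accounts for the low level was not tested. Over the 4 libraries the FPKM of ATF5 relative to ATF4 was 0.665 in normoxic and 0.199 in hypoxic WT cells, 0.0922 in shScr cells and 0.0545 in shALKBH5 cells, while that of DDIT3 relative to ATF4 stayed between 0.190 and 0.234. These pairs were chosen after their values were seen.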
